A study of Mus musculus with 5 samples.

Results

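Genes near which SOX7-Dam and FLI1-Dam had peaks were compared in mouse endothelial precursor cells. The gene rows of both peak tables were joined by Ensembl identifier, and each gene was described by its read density, its number of peaks and the position of those peaks. The SOX7 list held 6530 genes and the FLI1 list 10246, which together made 12265 genes, of which 4511 were in both lists, 2019 in the SOX7 list only and 5735 in the FLI1 list only.

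In DamID a transcription factor is fused to the bacterial Dam methylase, which methylates adenine in GATC near the sites the fusion visits, and methylated fragments are then amplified and sequenced. A library of unfused Dam serves as the control for access to open chromatin. SOX7 belongs to the SOXF group of HMG-box factors, which with SOX17 and SOX18 act in vessel formation and in early blood precursors and bind sites with the core ACAAT. FLI1 is an ETS factor of endothelial and blood cells, and ETS factors bind sites with the core GGAA. A DamID peak shows where the fusion methylated DNA and does not show that the gene nearby was regulated.

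The series has 5 libraries, and the comparison used 1 library of each of 2 factors. The SOX7-Dam library came from the cell line iSox7::Dam and the FLI1-Dam library from IFli1::Dam, both derivatives of the mouse embryonic stem cell line Ainv18. SOX7 peaks were called against one Dam-only library of the line iDam and FLI1 peaks against another, the one also used for ERG-Dam, and no peak list of a Dam-only library was used here. In all groups FLK1+ cells of day 3 embryoid bodies were cultured for 1 day in blast medium and sorted as cKIT+ TIE2+ cells. With 1 library a factor no test was made, and a difference between factors, cell lines, libraries and Dam-only controls cannot be told apart. The intervals given are exact Poisson or exact binomial (Clopper-Pearson) intervals at 95% and cover counting error only, since amplified reads without molecular identifiers are not independent molecules. Genes absent from a list lacked an assigned peak there, which does not show that they were not bound. The lists also differ in annotation, with 0 genes labelled antisense for SOX7 and 296 for FLI1, and 335 and 75 labelled processed transcript. Some genes of one list may have had no entry in the annotation of the other, and the part of this in the shared counts was not tested.

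The listed peaks held 974550 reads for SOX7 and 2665309 for FLI1, in 10029 and 16834 different peaks. Median read density was 48.8 reads per kb of peak in the SOX7 list and 68.9 in the FLI1 list. These densities are not scaled to library size or divided by the control, so genes were compared by the percentile of their density within each list, where 100 is the densest. Of the SOX7 genes 13.3% shared a peak with another gene of the list, and of the FLI1 genes 18.3%, and such genes are not independent of each other. The files hold no expression values, so the labelled cell type could not be checked by expression. Of 7 endothelial marker genes, 6 (Cdh5, Pecam1, Kdr, Tek, Esam and Cd34) were in both peak lists and Emcn in neither. Of 4 blood markers 2 were in both lists, as were 2 of 4 neural and 1 of 4 cardiac markers. So were 1 of 3 smooth muscle, 1 of 4 endoderm and 1 of 3 pluripotency markers. Of all RefSeq protein-coding genes 16.6% were in both lists, and a peak does not show that its gene was expressed.

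Promoters of genes that lead each pattern are shown for orientation, as the 250 bases before the gene start in RefSeq on GRCm38.p6. Peak positions are on mm9, so whether a peak covered these bases was not examined. Capitals mark the ETS core GGAA and the SOX core ACAAT, read on both strands, so that TTCC and ATTGT are also in capitals. In the Sfxn1 promoter one GGAA overlaps the ACAAT. Abt1 leads the genes ranked alike at the top, Gm525 and Tbp lead those with a RefSeq promoter that ranked apart, and Sfxn1 is dense in both lists at separate positions.
Abt1 (chr13:23423867-23424116, minus strand): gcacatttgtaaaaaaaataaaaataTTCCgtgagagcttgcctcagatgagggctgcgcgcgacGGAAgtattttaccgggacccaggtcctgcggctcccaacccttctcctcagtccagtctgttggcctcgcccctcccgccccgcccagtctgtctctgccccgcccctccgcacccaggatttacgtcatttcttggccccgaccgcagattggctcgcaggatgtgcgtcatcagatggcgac
Gm525 (chr11:89073591-89073840, plus strand): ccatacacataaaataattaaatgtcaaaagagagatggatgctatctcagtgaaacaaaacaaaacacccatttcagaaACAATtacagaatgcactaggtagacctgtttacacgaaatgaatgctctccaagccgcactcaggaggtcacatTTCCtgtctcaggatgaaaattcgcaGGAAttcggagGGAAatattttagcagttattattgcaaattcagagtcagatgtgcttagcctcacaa
Tbp (chr17:15499638-15499887, plus strand): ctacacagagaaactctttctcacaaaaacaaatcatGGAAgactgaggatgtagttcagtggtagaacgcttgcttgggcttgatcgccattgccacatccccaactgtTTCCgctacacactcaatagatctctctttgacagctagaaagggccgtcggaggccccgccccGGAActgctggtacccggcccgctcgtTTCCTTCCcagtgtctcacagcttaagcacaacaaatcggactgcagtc
Sfxn1 (chr13:54071595-54071844, plus strand): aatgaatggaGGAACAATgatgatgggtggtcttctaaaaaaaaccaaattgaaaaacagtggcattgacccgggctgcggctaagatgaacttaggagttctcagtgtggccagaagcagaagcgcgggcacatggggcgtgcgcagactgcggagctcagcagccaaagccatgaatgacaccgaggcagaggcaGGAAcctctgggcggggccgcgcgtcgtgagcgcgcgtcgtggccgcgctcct

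The Abt1 promoter held 2 matches of GGAA and 0 of ACAAT, that of Gm525 held 3 and 1, that of Tbp 5 and 0 and that of Sfxn1 2 and 1. The promoter of Pcdh17, a protocadherin gene ranked far higher for FLI1 than for SOX7, held 0 matches of either. Of 17491 RefSeq promoters, 93.1% held GGAA and 25.9% held ACAAT in the same window. A comparison of promoter letters between the classes of genes was void, because a promoter was found for 79.9% of protein-coding genes and 78.4% of those in both lists, below the 80% needed.

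The first question was whether the genes of one factor are also listed for the other. The 4511 genes in both lists were 36.8% of the genes of either list, 69.1% of the SOX7 genes (interval 67.9 to 70.2) and 44.0% of the FLI1 genes (43.1 to 44.99). Genes with more peaks were more often in the other list. Of SOX7 genes with 1 peak 61.1% were also FLI1 genes, of those with 3 peaks 92.1%, and of those with 7 or more peaks all 89. Of FLI1 genes with 1 peak 32.4% were also SOX7 genes, and of those with 7 or more peaks 95.6% (194 of 203). Density separated the genes less. With each list cut into 10 bins of density, 55.9% of the lowest bin of the SOX7 list were FLI1 genes, and of bins 4 to 10 between 70.1% and 73.4%. In the FLI1 list the share in the SOX7 list went from 30.05% in the lowest bin to 56.2% in the highest. Gene length was not used here, and a longer gene can take in more peaks.

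**Figure D1:**
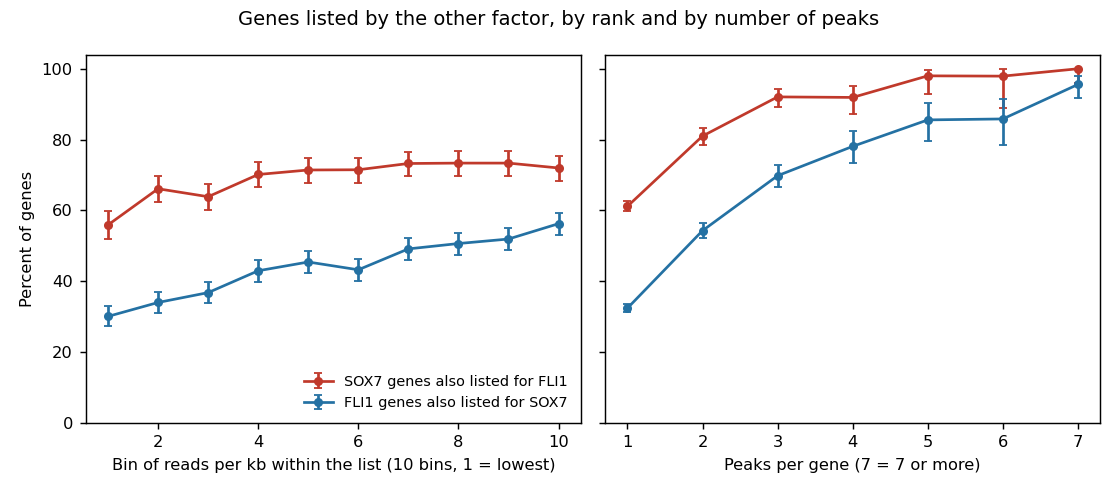
Percent of SOX7 genes (red) that were also FLI1 genes and of FLI1 genes (blue) that were also SOX7 genes, by read density within the list in 10 bins (left) and by peaks per gene (right), with exact binomial 95% intervals. With 1 peak the shares were 61.1% and 32.4%, and with 7 or more peaks 100% and 95.6%.

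Genes with a peak from 1 factor only had fewer reads. The median was 66 reads for the 2019 genes in the SOX7 list only, against 116 SOX7 reads for genes in both lists, and 130 reads for the 5735 genes in the FLI1 list only, against 261. They still reached the top of each list. Among SOX7 genes that were not FLI1 genes, the highest densities were at Creb3l4, which encodes a membrane-bound CREB-family factor, with 541 reads in 1 SOX7 peak (416 reads per kb, 382 to 452), and Hist1h2bh, a histone H2B gene, with 345 reads in 1 SOX7 peak (405 reads per kb, 364 to 451). They were followed by the immunoglobulin-domain adhesion protein gene Nptn (325 reads per kb) and the splicing factor gene U2af1 (288 reads per kb). Arfgap3, Gngt2, Olfr893 and Mphosph8 had 267, 266, 249 and 248 reads per kb. All 8 had 1 peak, and Hist1h2bh belongs to a family of near-identical histone genes, so its reads are uncertain. The genes of the SOX7 list only with the most peaks were Gab2, an adaptor of receptor tyrosine kinases, with 6, then Dnajc5 and Pola1 with 5 each. Evi5 had 4 peaks, as had other genes of that list, and ties were named by symbol.

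In the FLI1 list the densest genes without a SOX7 peak were 3 predicted genes, Gm10800, Gm10222 and Gm10801, with 7592, 6435 and 4409 reads per kb. The sources used here do not say how the authors treated reads with several matches in the genome, and those 3 values are uncertain. The next gene was Smyd4, of a family of SET-domain methyltransferases, with 640.4 reads per kb (592 to 692). Cpt1a, which encodes the carnitine palmitoyltransferase that brings fatty acids into mitochondria, had 569 reads in 1 FLI1 peak (568 reads per kb, 523 to 617). Apol7a, Ccdc125 and the zinc finger gene Zfp64 had 529.5, 501 and 481 reads per kb. The genes with the most FLI1 peaks and no SOX7 peak were Grik3, a kainate receptor subunit, Scfd2 and Slc25a21 with 8 each, followed by Cadps2 and others with 7. The densities of these 4 were low to middling, between percentile 2.52 for Cadps2 and 45.6 for Grik3.

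The second question was whether genes in both lists ranked alike. The rank correlation (Spearman's rho) of density over the 4511 genes was 0.435, that of peaks per gene 0.455 and that of the read count 0.478. Both values of a gene rest on 1 library each and share the gene's position and base composition. The median size of the difference was 18.5 percentile points. Within 5 points of each other were 717 genes (15.9%), and 176 (3.9%) were in the densest 10% of both lists.

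**Figure D2:**
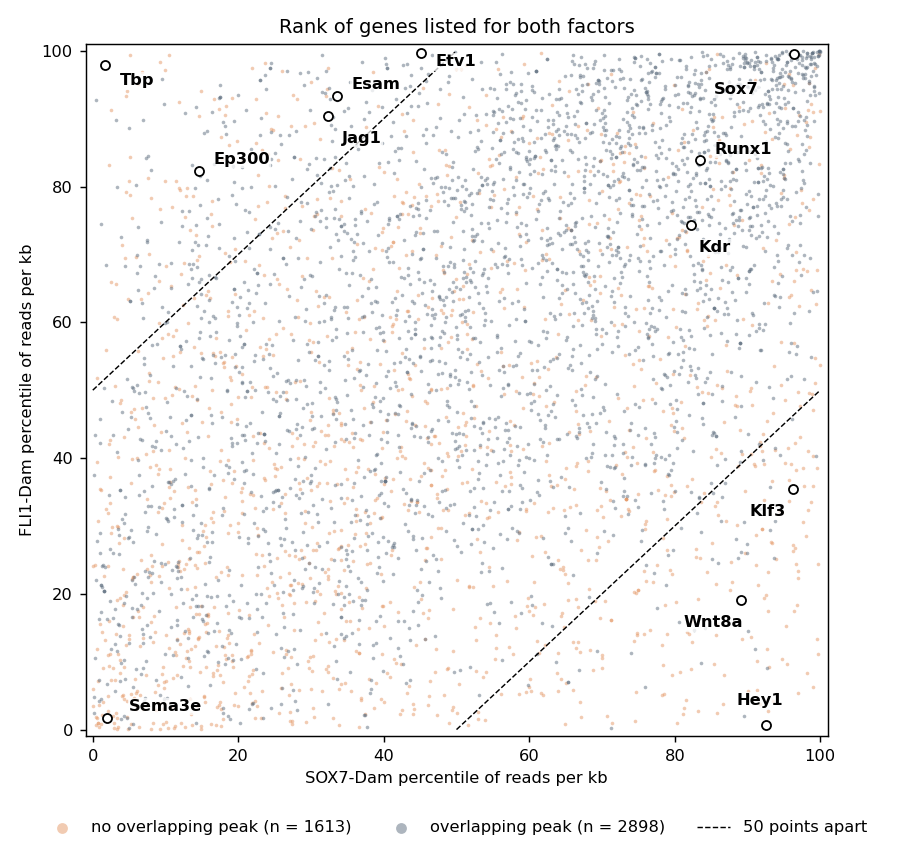
Percentile of reads per kb in the SOX7-Dam list (horizontal) and the FLI1-Dam list (vertical), one point a gene in both lists, for the 2898 genes with an overlapping peak (grey) and the 1613 without (orange), with 12 genes named. Dashed lines mark differences of 50 points, beyond which lay 218 genes ranked higher for SOX7, such as Hey1, and 275 ranked higher for FLI1, such as Tbp.

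Among genes ranked alike, Abt1, which encodes an activator of basal transcription, was at the top. Abt1 had 722 reads in 1 SOX7 peak (656 reads per kb, 609 to 705) and 1171 reads in 1 FLI1 peak (1064 reads per kb, 1004 to 1126). It was the densest gene of the SOX7 list, and its peaks, chr13:23503753-23504853 for SOX7 and chr13:23503742-23504842 for FLI1 on mm9, overlapped by 1090 bp. Alyref2, of a family of messenger RNA export factors, and B930036N10Rik shared 1 peak in each list, with 292 reads per kb for SOX7 and 556 for FLI1. Alyref2 has the older symbol Refbp2 in the SOX7 file. Rfc4 had 290 reads in 1 SOX7 peak (252 reads per kb, 224 to 283) and 522 reads in 1 FLI1 peak (454 reads per kb, 415 to 494), and it encodes a subunit of the clamp loader of DNA replication. The other genes alike at the top were 0610031J06Rik, the mucin gene Muc13, the olfactory receptor gene Olfr341 and the pair Gm2792 and Tmem181b-ps, which shared their peaks. Slc12a2, a sodium, potassium and chloride cotransporter gene, ranked 99.8 and 99.5, but its peaks lay 22.3 kb apart. Near the bottom of both lists were Wdr44, 1810022K09Rik, the protease gene Corin and the protocadherin gene Pcdh11x. Their percentiles did not exceed 3.35 in either list.

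The third question was which genes ranked apart. Higher for SOX7 by at least 50 points were 218 genes (4.83% of those in both lists), and higher for FLI1 by as much were 275 (6.1%). With percentiles taken over the 4511 shared genes only, the split was 275 toward SOX7 and 252 toward FLI1, and with the FLI1 list cut to the length of the SOX7 list 299 and 156. Ranked by read count instead, it was 157 toward SOX7 and 373 toward FLI1. In all of the 218 and 275 genes the percentile intervals from counting error did not overlap. The choice of genes at least 50 points apart nearly fixed this, since the median intervals were 21.6 points wide for SOX7 and 15.2 for FLI1. The genes nearest to the limit were Cd44 at 50.01 and Aqp11 at 49.97 points for SOX7, and Prkaa2 at -50.05 and Sntb1 at -49.97 points for FLI1, where differences are SOX7 minus FLI1. Which genes ranked higher for SOX7 depended on the length of the FLI1 list. With that list cut, 25 of the 218 genes were still in both lists, since the others were FLI1 genes of low density, and 0 of the 10 named below. Ranking by the read count kept 52 of the 218 and 76 of the 275 genes beyond 50 points.

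Hey1, a transcriptional repressor and direct target of Notch signalling, had the largest difference toward SOX7. Hey1 had 84 reads in 1 SOX7 peak (105 reads per kb, 83.6 to 129.8) and 93 reads in 2 FLI1 peaks (24.1 reads per kb, 19.5 to 29.6), which put it at percentile 92.5 for SOX7 and 0.639 for FLI1. Its SOX7 peak at chr3:8666046-8666846 lay 1.31 kb from the nearer FLI1 peak at chr3:8668154-8670004. The read counts were nearly equal, and ranked by read count Hey1 was only 21 points higher for SOX7. The SOX7 peak measured 801 bp and the FLI1 peaks 3852 bp together. Syvn1 had 338 reads in 1 SOX7 peak (281 reads per kb, 252 to 313) and 57 reads in 1 FLI1 peak (40.7 reads per kb, 30.8 to 52.7). It encodes a ubiquitin ligase of the endoplasmic reticulum, and by read count it still ranked 83 points higher for SOX7.

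Mapk6 had 190 reads in 1 SOX7 peak (158 reads per kb, 137 to 182) and 79 reads in 1 FLI1 peak (37.6 reads per kb, 29.8 to 46.9). Mapk6, which encodes an atypical MAP kinase, had its peaks 0.152 kb apart, at chr9:75251104-75252304 for SOX7 and chr9:75248851-75250951 for FLI1. Gm525, the mitochondrial phosphatase gene Ppm1k, the chromatin factor gene Arid4b and the polymeric immunoglobulin receptor gene Pigr ranked 90.05, 89.3, 87.9 and 87.6 points higher for SOX7. BC002230, the atlastin gene Atl1 and the RNA-binding protein gene Hnrnpd ranked 86.2, 85.5 and 84.4 points higher. Of these 10 genes 9 had no overlapping peak, the exception being Pigr, and 9 stayed at least 50 points apart by read count, the exception being Hey1.

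Tbp, which encodes the TATA-binding protein, had the largest difference toward FLI1. Tbp had 35 reads in 1 SOX7 peak (19.4 reads per kb, 13.5 to 27) and 678 reads in 2 FLI1 peaks (212 reads per kb, 196 to 228), or percentile 1.73 for SOX7 and 97.9 for FLI1. Its SOX7 peak at chr17:15659841-15661641 lay 2.15 kb from the nearer FLI1 peak at chr17:15656536-15657686. Pcdh17 was unlike Tbp in that its peaks coincided. Pcdh17 had 31 reads in 1 SOX7 peak (16.3 reads per kb, 11.1 to 23.1) and 358 reads in 1 FLI1 peak (146 reads per kb, 131 to 162), and the SOX7 peak at chr14:84843893-84845793 lay wholly inside the FLI1 peak at chr14:84843807-84846257. Cnot4 had 50 reads in 1 SOX7 peak (27.8 reads per kb, 20.6 to 36.6) and 421 reads in 1 FLI1 peak (312 reads per kb, 283 to 343), and it encodes a ubiquitin ligase associated with the CCR4-NOT complex. The muscle genes Synpo2l and Abra, whose products bind actin, ranked 90.2 and 89.2 points higher for FLI1. The small GTPase gene Arl3, the cytochrome P450 reductase gene Por and the scaffold gene Gipc1 ranked 89.3, 88.9 and 88.8 points higher, and Anks1 and Frmd7 88.7 and 87.2. By read count 6 of these 10 stayed at least 50 points apart, and Por was 9.88 points apart.

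Lack of overlap was more frequent among genes ranked higher for SOX7. Of the 218 genes ranked higher for SOX7, 169 (77.5%, interval 71.4 to 82.9) had no overlapping peak, and of the 275 ranked higher for FLI1, 107 (38.9%, 33.1 to 44.9). Over all genes in both lists the share was 35.8%, which is not a matched reference. Genes ranked this far apart cannot rank high in both lists, and overlap was less frequent at low percentiles. With genes binned by the lower of both percentiles in steps of 10 points, 38.6% had an overlapping peak in bin 1 and 66.0% in bin 5. Genes ranked apart were not compared with other genes of similar lower percentile. Genes ranked higher for SOX7 had a median of 131 SOX7 and 115.5 FLI1 reads and narrow SOX7 peaks, with a median width of 1201 bp against 1805 bp for FLI1. Genes ranked higher for FLI1 had a median of 65 SOX7 and 275 FLI1 reads at similar widths of 1701 and 1651 bp. The part of peak width in the SOX7 ranks was not tested beyond the ranks by read count.

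The fourth question was how often both factors had peaks at the same gene but at different places. Of the 4511 genes, 2898 had a SOX7 peak that overlapped one of their own FLI1 peaks by at least 1 bp, and 1613 (35.8%) had none. Of those 1613, 1587 overlapped no peak of the other list at all, whatever gene it was assigned to. The nearest SOX7 and FLI1 peaks lay a median of 11.2 kb apart (quartiles 3.85 and 29.5 kb), 8.25% within 1 kb and 12.6% more than 50 kb apart. Genes without overlap ranked lower in both lists, with median percentiles of 42.0 for SOX7 and 38.7 for FLI1 against 57.8 and 66.4 with overlap. The share with overlap went from 38.6% where the lower of both percentiles was under 10 to 91.5% (161 of 176) where it was at least 90. It was also greater with more peaks, at 57.0% of genes with 1 peak in each list and 95.8% (138 of 144) of those with 5 or more in each. Density ranks were closer where peaks overlapped, with a rho of 0.514 against 0.235.

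**Figure D3:**
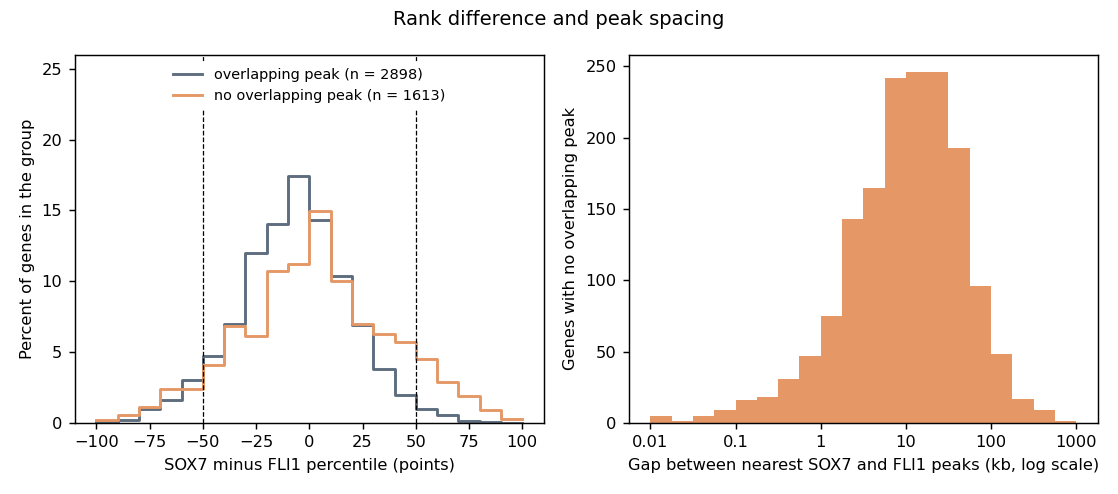
Left, percent of genes by SOX7 minus FLI1 percentile in steps of 10 points, for genes with an overlapping peak (grey, n = 2898) and without (orange, n = 1613), with dashed lines at 50 points. Right, gap between the nearest SOX7 and FLI1 peaks of the 1613 genes without overlap, on a log scale whose first bar also holds smaller gaps, with a median of 11.2 kb. The orange curve on the left holds more of its genes beyond 50 points toward SOX7 (10.5%) than the grey one (1.69%).

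Some genes were dense in both lists at separate places. Of genes whose peaks met no peak of the other list, whatever gene it was assigned to, the 10 with the highest lower percentile are given. After Slc12a2 came Dctn6, of the dynactin complex, and Fzd2, a Wnt receptor gene. Dctn6 had 171 reads in 1 SOX7 peak (213 reads per kb, 183 to 248) and 776 reads in 2 FLI1 peaks (201 reads per kb, 188 to 216), with 0.805 kb between the peaks. Fzd2 had 153 reads in 1 SOX7 peak (105 reads per kb, 89.4 to 124) and 232 reads in 1 FLI1 peak (221 reads per kb, 193 to 251), and its peaks were 4.16 kb apart. The mitochondrial serine carrier gene Sfxn1, the tetraspanin gene Cd81 and the homeobox genes Pdx1 and Hoxd3 ranked at 90.97 or higher in both lists with gaps of 20.2 kb, 2.04 kb, 3.03 kb and 18.1 kb. Wscd2, Gm8223 and the mitochondrial deacylase gene Sirt5 completed the 10, Sirt5 with a lower percentile of 89.7. Many peaks did not ensure overlap, since the receptor phosphatase gene Ptprd had 6 SOX7 and 14 FLI1 peaks and the glypican gene Gpc5 6 and 11, none of which met a peak of the other list. Odz2 had 2 and 12 peaks with a nearest gap of 0.135 kb, and Arhgap26 had 4 and 8.

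FLI1 more often had the greater number of peaks at a gene. More FLI1 than SOX7 peaks were listed at 1678 genes (37.2%), more SOX7 peaks at 765 (17%), and equal numbers at 2068 (45.8%), of which 1654 had 1 peak in each list. The largest excess of FLI1 peaks was at the predicted gene Gm20388, with 60 against 15, and at Fgfr2, a fibroblast growth factor receptor gene, with 40 against 15. The peaks assigned to these genes reached far, since the FLI1 peaks of Gm20388 spanned 4.38 Mb and those of Fgfr2 3.03 Mb, so they are not peaks at one gene. Of the Fgfr2 peaks 8 pairs overlapped, and its densities were 65.3 reads per kb for SOX7 and 82.1 for FLI1, near the same percentiles (71.4 and 64.6). Odz4, Auts2 and the adhesion gene Kirrel3 followed with 23 against 5, 25 against 9 and 15 against 2. The largest excess of SOX7 peaks was at Rcbtb2, with 9 against 1. Aff3, the junction scaffold gene Magi1 and Gtdc1 had 13 against 6, 21 against 14 and 9 against 3. Runx1t1, a corepressor gene, had 8 against 2, an excess equalled by another gene.

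The remaining results follow 32 lists of genes by role, with 445 genes in all. Of these 188 (42.2%) were in both peak lists, 37 in the SOX7 list only, 102 in the FLI1 list only and 118 in neither. Over 21896 RefSeq protein-coding genes 16.6% were in both lists, 6.41% in the SOX7 list only and 18.7% in the FLI1 list only. Of all list genes 50.6% were in the SOX7 list against 23% of protein-coding genes, and 65.2% in the FLI1 list against 35.3%. Of the 188, 4 ranked apart toward SOX7 (Hey1, Wnt8a, Klf3 and Cd44), which is 2.13% against 4.83% of all genes in both lists, and 12 toward FLI1, which is 6.38% against 6.1%. No overlapping peak was found for 56 (29.8%, against 35.8% of all genes in both lists), and the median difference was -5.01 points against -3.03 over protein-coding genes in both lists. Of the 188, 110 ranked higher for FLI1 and 78 for SOX7. The lists below hold few shared genes each, so their shares are uncertain.

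The VEGF and TIE systems direct vessel growth and stability, and of 10 VEGF receptor and ligand genes 4 were in both lists, as were 3 of 5 of the TIE group. Kdr, the main VEGF receptor gene of endothelial cells, had 995 reads in 4 SOX7 peaks and 810 reads in 3 FLI1 peaks, with 3 overlapping pairs and percentile 82.3 for SOX7 and 74.3 for FLI1. The longest SOX7 peak of Kdr, chr5:76365705-76373105, overlapped 2 FLI1 peaks, chr5:76365971-76367021 and chr5:76369521-76373121. Flt1, the VEGF receptor gene whose product also acts as a decoy, had the same number of reads in both lists, 324, but in 5 SOX7 and 2 FLI1 peaks, none of which overlapped. The coreceptor gene Nrp1 ranked 32.1 points higher for SOX7 (94.3 against 62.2) and Nrp2 13.2. All 3 shared genes of the TIE group ranked higher for FLI1, against 110 of all 188 shared list genes. Tek, the angiopoietin receptor gene, stood at 46.7 for SOX7 and 80.6 for FLI1, and its ligand genes Angpt1 and Angpt2 at 29.5 and 56.8 and at 2.43 and 37.2. Tie1, the related orphan receptor gene, was in the SOX7 list only, with 352 reads in 3 SOX7 peaks, and the ligand genes Vegfc and Pgf in the FLI1 list only.

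Of 16 genes of endothelial junctions and adhesion 8 were in both lists, 7 in the FLI1 list only, 0 in the SOX7 list only and 1 in neither. The median difference of the 8 was -26.0 points, against -5.01 over all 188 shared list genes. Of the 8, 6 ranked higher for FLI1, against 110 of the 188. Esam, an endothelial adhesion molecule gene, had 276 reads in 2 SOX7 peaks (39.7 reads per kb, 35.2 to 44.7) and 669 reads in 1 FLI1 peak (150.3 reads per kb, 139 to 162). Its SOX7 peak at chr9:37334954-37339254 lay inside the FLI1 peak, and the percentiles were 33.5 and 93.3. The tight junction gene Tjp1 ranked 67.9 points higher for FLI1 with no overlapping peak. Cdh5, which encodes VE-cadherin, overlapped at 72 for SOX7 and 87.4 for FLI1, and F11r, another junction adhesion molecule gene, was near the top of both lists at 92.6 and 99.3. Pecam1 went the other way, 37.2 points higher for SOX7, with its peaks 1.61 kb apart. In the FLI1 list only were Icam1, Cldn5, Jam2, Jam3, Sele, Ctnnb1 and Afdn, of which Afdn was the densest at percentile 85.1.

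Among 24 other endothelial surface and signalling genes, 9 were in both lists, 2 in the SOX7 list only and 8 in the FLI1 list only. Egfl7, a secreted endothelial factor gene, had 3041 SOX7 reads, the most of any gene of that list, in 1 peak at chr2:26426499-26431499 (608 reads per kb, 587 to 630.1). Its FLI1 peak, chr2:26448498-26452198 with 510 reads (138 reads per kb, 126 to 150.3), lay 17 kb away. Egfl7 was in the densest 10% of both lists with no overlap between its own peaks, but its SOX7 peak overlapped by 900 bp a FLI1 peak assigned to Gm13358. Cd34, Eng, Rasip1, Ptprb, S1pr1, Aplnr and Sox17 overlapped, while the apelin gene Apln did not. Robo4 and Cd93 were in the SOX7 list only, and Vwf, Nos3, Plvap, Clec14a, Stab2, Mmrn2, Cd36 and Arhgef15 in the FLI1 list only.

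**Figure D4:**
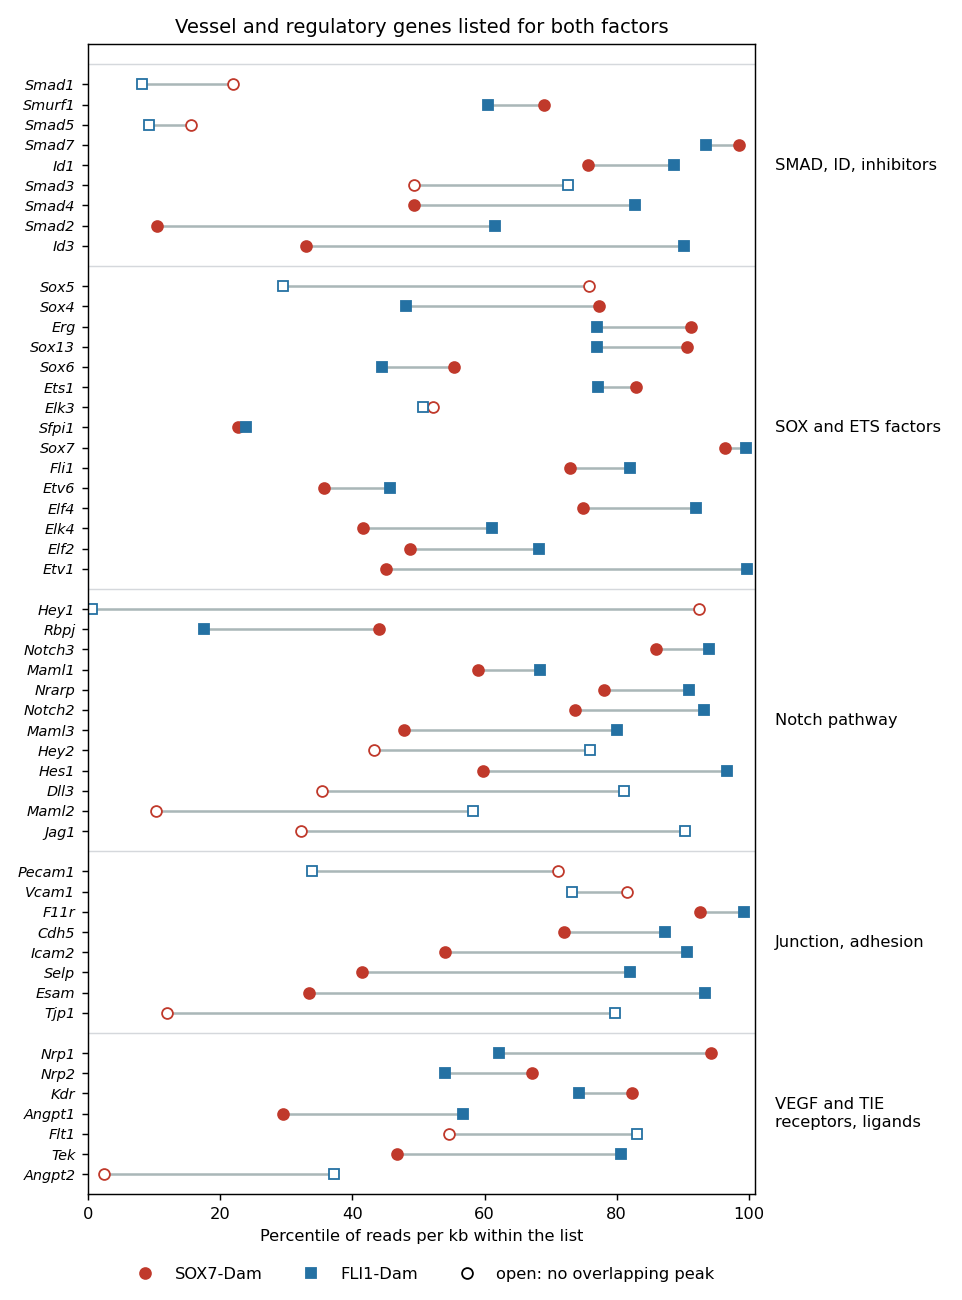
Percentile of reads per kb within the SOX7-Dam list (red circles) and the FLI1-Dam list (blue squares) for genes in both lists, one row a gene, grouped by role, with open symbols where no SOX7 and FLI1 peaks overlapped. Hey1 stands at 92.5 for SOX7 and 0.639 for FLI1, while Jag1, Tjp1, Esam, Id3 and Etv1 lie more than 50 points higher for FLI1.

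Notch signalling specifies arterial endothelium. Of 23 Notch ligand, receptor, target and modifier genes 12 were in both lists. Of these 10 ranked higher for FLI1, against 110 of all 188 shared list genes. The median difference was -25.9 points, against -5.01 over the 188. No overlapping peak was found for 5 of the 12 (41.7%), against 35.8% of all genes in both lists. The ligand gene Jag1 had 41 reads in 1 SOX7 peak and 155 reads in 1 FLI1 peak, 35.5 kb apart, with percentiles 32.3 and 90.4. Dll3 also ranked 45.8 points higher for FLI1. The receptor genes Notch2 and Notch3 were dense in both lists, at 73.6 and 85.9 for SOX7 and 93.2 and 93.9 for FLI1, and both overlapped. Notch1 was in the FLI1 list only, with 590 reads in 6 FLI1 peaks. Of the target genes, Hes1 stood at 59.8 and 96.7 and Hey2 at 43.3 and 76, both higher for FLI1, unlike Hey1. Rbpj, the DNA-binding partner of Notch, ranked 26.4 points higher for SOX7. Numb, an inhibitor of Notch, was in the SOX7 list only, and Heyl in the FLI1 list only.

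The genes of the SOX and ETS families include those of both factors. Sox7 itself had 314 reads in 2 SOX7 peaks (131 reads per kb, 117 to 146) and 1022 reads in 2 FLI1 peaks (352 reads per kb, 331 to 374), at percentile 96.3 for SOX7 and 99.6 for FLI1. Its SOX7 peak at chr14:64576993-64578543 lay inside the FLI1 peak at chr14:64576907-64578607, and each list had a second Sox7 peak that did not overlap. Fli1 had 1520 reads in 9 SOX7 peaks and 1416 reads in 7 FLI1 peaks with 4 overlapping pairs, at 72.9 and 82. Of 19 SOX genes 6 were in both lists, 4 in the FLI1 list only and 9 in neither. Sox17, of the same group as Sox7, stood at 58.7 and 90.03, while Sox18 was in the FLI1 list only, at 18.4. Of 26 ETS genes 10 were in both lists, 4 in the SOX7 list only and 7 in the FLI1 list only. Of the 10, 9 had an overlapping peak, while 35.8% of all genes in both lists had none. Ets1 and Erg ranked high in both, at 82.9 and 77.2 and at 91.3 and 77.1. Etv1 ranked 54.6 points higher for FLI1, with 46.1 reads per kb for SOX7 and 382 for FLI1. Etv2, a pioneer ETS factor gene of the blood and vessel lineages, was in the SOX7 list only with 112 reads in 1 SOX7 peak at percentile 44.4, as were Elf1, Ets2 and Etv4.

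**Figure D5:**
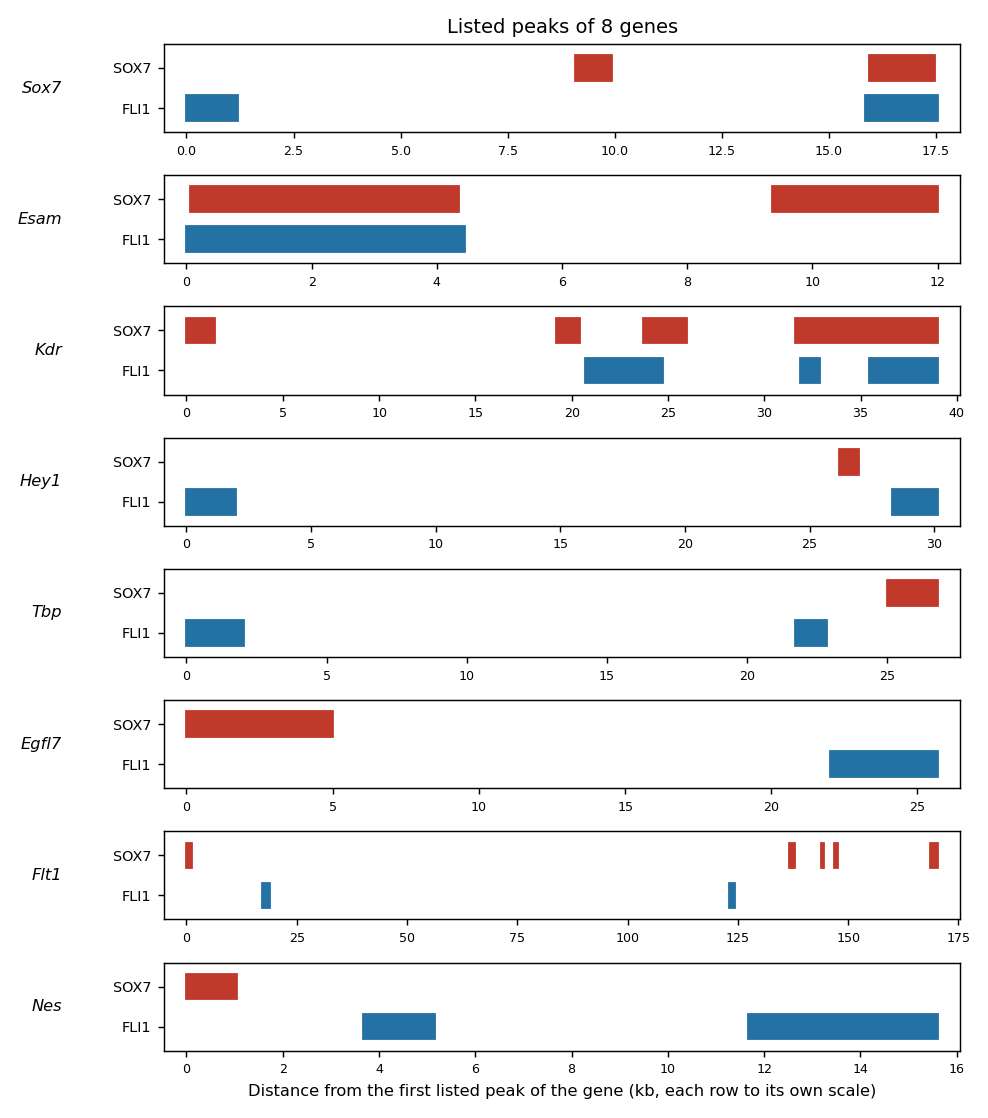
Listed peaks of 8 genes for SOX7-Dam (red) and FLI1-Dam (blue), drawn to scale within each row as distance in kb from the first listed peak. Peaks coincide at Sox7, Esam and Kdr, while at Hey1, Tbp, Egfl7, Flt1 and Nes none of the gene's own SOX7 peaks meets one of its own FLI1 peaks.

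Of 22 regulator genes of haemogenic endothelium and blood 12 were in both lists. Their median difference was 0.310 points, against -5.01 over all 188 shared list genes. For each factor 6 ranked higher, while 110 of the 188 ranked higher for FLI1. Single genes differed more, from 33.1 points higher for SOX7 at Gata1 to 23.7 points higher for FLI1 at Meis1. Runx1, the factor required for blood cells to emerge from endothelium, stood at 83.5 for SOX7 and 83.8 for FLI1, with 457 reads in 4 SOX7 peaks and 2669 reads in 10 FLI1 peaks. Tal1 was also alike at 72 and 74.8, with 3 overlapping pairs. Lmo2 ranked 28.3 points higher for SOX7, and Kit, whose product was used to sort the cells, 14.7 points higher with its peaks 3.56 kb apart. Gata2 and Myb were in the SOX7 list only, and Runx3, Gfi1, Hhex and Hoxb4 in the FLI1 list only.

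In the BMP and TGF-beta pathway, which acts in early mesoderm and in vessels, 21 of 39 genes were in both lists. Their median difference was -11.8 points, against -5.01 over all 188 shared list genes. Smad7, an inhibitor gene, was in the densest 10% of both lists, at 98.5 and 93.5. The mediator gene Smad2 and the target gene Id3 ranked 51.2 and 57.1 points higher for FLI1, and both had overlapping peaks. Id1 stood at 75.6 and 88.8, while Id2 was in the SOX7 list only. The receptor gene Acvrl1, which acts in endothelium, was in the SOX7 list only at percentile 86.6. Of 39 Wnt genes 10 were in both lists, 3 in the SOX7 list only and 12 in the FLI1 list only. The ligand gene Wnt8a ranked 70.1 points higher for SOX7 (93.6 reads per kb, against 47 for FLI1), 10.4 kb apart. All 3 shared ligand genes ranked higher for SOX7, against 78 of all 188 shared list genes. All 7 shared receptor and mediator genes ranked higher for FLI1, against 110 of the 188, by 2.21 points at Axin2 to at most 24.9 points. Of 14 genes of FGF signalling 8 were in both lists, and Fgf5 ranked 53.8 points higher for FLI1.

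The extracellular matrix and its receptors anchor vessel cells. Of 18 integrin, laminin, collagen IV and other matrix genes (Fn1, Hspg2 and Nid1) 13 were in both lists and 0 in neither. Their median percentiles were 74.8 for SOX7 and 66.0 for FLI1, and 2 of the 13 had no overlap (15.4%, against 35.8% of all genes in both lists). Col4a1, a basement membrane collagen gene, had 825 reads in 5 SOX7 peaks and 1806 reads in 7 FLI1 peaks with 4 overlapping pairs, and Itgav, a subunit of the vitronectin receptor, ranked 52.9 points higher for FLI1. Of 26 axon and vessel guidance genes 15 were in both lists, 8 in the FLI1 list only and 0 in the SOX7 list only, and 7 of the 15 (46.7%) had no overlap. The median percentiles of the 15 were 20.8 and 29.0, and the plexin ligand gene Sema3e was alike at the bottom, at 1.95 and 1.75. Klf3, a Krüppel-like repressor gene, ranked 60.8 points higher for SOX7 despite an overlapping peak, with 176 reads in 1 SOX7 peak and 524 reads in 5 FLI1 peaks. All 6 shared Krüppel-like genes had an overlapping peak, while 35.8% of all genes in both lists had none. All but Klf3 had 2 or more peaks in each list, and of all such genes 82.2% had an overlapping peak.

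Genes of other cell types and of basic functions were also listed. All 8 shared cardiac genes had overlapping peaks, while 35.8% of all genes in both lists had none. Among the 8 were Tbx5 at 93.9 and 77.6 and Nkx2-5 at 86.6 and 87.9. Nes, a neural intermediate filament gene that some endothelial cells also express, and the pancreatic factor gene Pdx1 were in the densest 10% of both lists with no overlap between their own peaks. A FLI1 peak of Nes overlapped by 901 bp a SOX7 peak assigned to Bcan. Of 14 housekeeping genes 7 were in both lists, 3 in the SOX7 list only and 0 in the FLI1 list only. The 7 had a median difference of -32.5 points, against -5.01 over all 188 shared list genes. Of the 7, 6 ranked higher for FLI1, against 110 of the 188. These 6 included Tbp and, by 55.6 points, the 14-3-3 gene Ywhaz. Of 23 chromatin regulator genes 11 were in both lists and 6 of these (54.5%) had no overlap, against 35.8% of all genes in both lists. The acetyltransferase gene Ep300 and the deacetylase gene Hdac7 ranked 67.7 and 59.1 points higher for FLI1, while Arid1a, of the SWI/SNF remodelling complex, was near the top of both at 91.5 and 98.5. Myc, the growth regulator gene, was also in the densest 10% of both, at 95.5 and 94.2, and the blood and mesenchymal adhesion gene Cd44 ranked higher for SOX7 with its peaks 32.6 kb apart.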

How the data were processed

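The authors deposited, for each factor, a gene table of reads in DamID peaks. Per the labels' protocols, single reads of 60 bp were sequenced, and per the labels peaks were called relative to a Dam-only library. The submitters' processing notes give mm9 as the build. The deposited counts of reads per gene are whole numbers, neither scaled nor divided by the control. The other value is, per the file headers, that count per kb of peak, a signal that recomputed from count and peak length to within 0.005. For the aligner, peak caller, threshold and gene assignment the tools were not given in the sources used here.

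Genes were joined by Ensembl identifier in Python 3.11.15 with pandas 2.3.3, and percentiles are mid-ranks within a list. The lists appear to come from different annotation releases, since 191 of 4511 shared genes differ in biotype and 46 in symbol. Roles were matched by RefSeq symbol. The members and gene lists were chosen with earlier results of these data known. Named genes are protein-coding genes with at least 30 reads per list they are in, taken as the extremes of each pattern (10 at a time for ranks, 5 or fewer for the rest, 8 and 4 for one list), with list members ranked apart, dense in both or, in part, without overlap; other list members are named for their role, after their values were seen. The join, overlap and percentile steps returned the known answers on simulated lists, in which each gene had a single unshared peak. Genes with several peaks, shared peaks and tied densities were not simulated. Alternatives changed the genes kept, the ranked value, the overlap rule and the list length.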

Additional observations from a re-analysis of the deposited data

How the results depend on the processing

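Of the alternatives run, 40 values kept near those reported (counts within 1.5 times, the correlation within its approximate interval over genes, used only as this limit) and 10 moved. Some of the 40 could hardly move. The correlation for percentiles over shared genes cannot change, and the counts with intervals also apart were nearly fixed by the choice of genes. The rank correlation was 0.398 for genes with at least 50 reads, 0.335 with the FLI1 list cut to the length of the SOX7 list, 0.478 for ranks by read count, 0.514 for genes with an overlapping peak and 0.235 without. The cut FLI1 list left 858 genes without overlap and 156 ranked higher for FLI1. Ranks by read count put 356 genes in the densest 10% of both. Genes with 1 peak in each list, which are fewer by construction, held 106 ranked higher for SOX7 and 131 for FLI1. The split of genes ranked apart turned with the scale, from 218 toward SOX7 and 275 toward FLI1 to 275 and 252 for percentiles over shared genes only, and to 299 and 156 with the cut FLI1 list, while ranks by read count gave 157 and 373. A count kept near did not mean the same genes. The 299 and 157 genes toward SOX7 shared 25 and 52 with the 218, and the 373 toward FLI1 shared 76 with the 275. The 40 include 3 alternatives for gene lists, chosen after seeing the data, which left 145 to 171 of 188 list genes in both lists. No paired analysis was possible because each factor has 1 library. Replicates could not be left out for the same reason. Depth limits the lower ranks: the median percentile interval from counting error was 21.6 points wide for SOX7 and 15.2 for FLI1.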

Other observations

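Over all genes, the share also in the other list was lower on chromosome X for SOX7 genes and not for FLI1 genes. Of 407 SOX7 genes on X 53.8% (interval 48.8 to 58.7) were also FLI1 genes, against 70.1% (68.9 to 71.2) of 6123 on autosomes, where single chromosomes ranged from 63.4% to 75.3%. Of FLI1 genes 47.3% (42.7 to 51.96) on X were also SOX7 genes, against 43.9% (42.9 to 44.9) on autosomes, where the intervals overlap. Of the 219 X genes in both lists 50.7% (43.9 to 57.5) had no overlapping peak, against 35.0% on autosomes. X genes were also shallower, with a median of 49 SOX7 and 84 FLI1 reads against 99 and 174. They ranked low, at median percentiles of 11.6 for SOX7 and 12.7 for FLI1 against 52.5 and 51.8. Among genes with 1 peak in each list they were in, the shares of SOX7 genes in the FLI1 list were 35.6% on X and 49.6% on autosomes, and of FLI1 genes in the SOX7 list 31.5% and 27.0%. Among genes of above-median density in each list they were in, both shares were lower on X, with only 4 X genes in both lists. Of 30 such SOX7 genes on X 13.3% (interval 3.76 to 30.7) were also FLI1 genes, against 66.1% on autosomes. Of 26 such FLI1 genes on X 15.4% (4.36 to 34.9) were also SOX7 genes, against 40.1% on autosomes. The part of depth in these values was not tested.

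The following families were chosen after the lists were seen. Over all RefSeq protein-coding genes 16.6% were in both lists, 6.41% in the SOX7 list only and 18.7% in the FLI1 list only. Of 53 keratin genes 0 were in the SOX7 list, against 23% of protein-coding genes, and 11 (20.8%) in the FLI1 list, against 35.3%, with a median FLI1 percentile of 76.8. Of 21 receptor-type tyrosine phosphatase genes 12 were in both lists, 3 in the FLI1 list only and 0 in the SOX7 list only. Of the 12, 6 had overlapping peaks, while 35.8% of all genes in both lists had none. Proteasome subunit genes in both lists (7 of 46) had a median difference of -24.1 points, against -3.03 over protein-coding genes in both lists. Genes of heterogeneous nuclear ribonucleoproteins were in both lists for 7 of 21, in the SOX7 list only for 6 and in the FLI1 list only for 3. Thus 61.9% were in the SOX7 list, against 23%, and 47.6% in the FLI1 list, against 35.3%. Of 1110 olfactory receptor genes 56 were in either list, 8 of them in both. In the SOX7 list were 2.34% of them, against 23%, and in the FLI1 list 3.42%, against 35.3%. Near-identical members of these families can share reads, so single values are uncertain.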
